A study of Rattus norvegicus with 9 samples.

Results

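The interleukins and their receptors were followed in the infarcted hemisphere of rats 14 days after focal cerebral ischemia. Members were found by name: every non-control probe of the array whose gene name starts with Il and a number was taken, and where a gene had several probes, the one with the highest mean log2 intensity over the 9 arrays stood for the gene. This gave 76 genes on 87 of the 30367 non-control probes, of which 35 encode ligands, 37 receptor chains, and 4 secreted antagonists or binding proteins (Il1rn, Il36rn, Il18bp, and Il22ra2). Measured levels were not used to choose the genes. Total RNA came from the brain of Sprague Dawley (SD) rats, male per the study's methods, in 3 groups of 3 arrays. Sham rats were sham-operated and received solvent, and I/R rats had a middle cerebral artery closed with a nylon suture for 2 h and were then reperfused. DHI rats had the same operation and received Danhong injection, a preparation of medicinal herbs, through the tail vein each day until day 14. The study used several doses and, per its methods, profiled the middle dose on arrays. The labels do not say whether the arrays of a group came from separate animals, and the study calls them biological replicates. All Sham and I/R arrays lay on 1 slide and all DHI arrays on a second slide that was scanned separately, so slide and DHI cannot be told apart.

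Interleukins are secreted signaling proteins through which leukocytes, glia, and vascular cells act on each other. Most bind a private receptor chain that then recruits a shared one, such as Il1rap for IL-1, IL-33, and IL-36 or Il10rb for IL-10. Il2rg (the common gamma chain) serves IL-2, IL-4, IL-7, IL-15, and IL-21, and Il6st (gp130) serves IL-6 and IL-27. Several are held in check by soluble antagonists or decoy receptors, including Il1rn and Il1r2 for IL-1 and Il18bp for IL-18. In the injured brain, microglia and infiltrating macrophages are well-known sources of IL-1 and IL-18, while Il33 is stored in the nuclei of glial cells.

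The value of a probe is its log2 intensity minus the 75th percentile of its array, so a value of 0 is the 75th percentile. Levels of different probes were not set against each other, because probes differ in brightness at the same amount of RNA. A gene was tested if its probe was well above background, as judged by the scanner software, on all 3 arrays of at least 1 group, and 50 of the 76 genes passed (19 of 35 ligands, 27 of 37 receptor chains, and all 4 antagonists and binding proteins). Another 19 genes, 12 ligands and 7 receptor chains, were not well above background on any array. A gene was called when limma's Benjamini-Hochberg adjusted p over all 23747 tested probes was under 0.05 and the fold change over 1.5, and "rose" and "fell" are used for called genes only. Counts are also given at the study's thresholds, an unadjusted p under 0.05 with the same fold change.

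In I/R versus Sham, 30 of the 50 tested genes were called, 24 higher and 6 lower, while 31.5% of all tested probes were called (16.4% higher and 15.1% lower). At the study's thresholds 35 genes passed, 26 higher and 9 lower, against 43.1% of all probes. Receptor chains and ligands differed in their counts: 19 of 27 receptor chains were called (16 higher, 3 lower), but 8 of 19 ligands (6 higher, 2 lower). Il1rl1, Il10ra, and Il27ra were tested through their I/R arrays alone, being at background on all Sham arrays, and so had to come out higher. Il1r1 was also tested through its I/R arrays alone, being above background on 1 Sham and 1 DHI array, so its call too depends on the filter. Among genes above background on all 9 arrays, 15 of 21 receptor chains (12 higher, 3 lower) and 8 of 18 ligands (6 higher, 2 lower) were called. The median log2 difference was 1.75 over the receptor chains and -0.09 over the ligands, beside -0.10 over all tested probes. The 3 I/R arrays lay entirely above or entirely below the 3 Sham arrays for 39 of the 50 genes, a pattern shown by 62.5% of all probes. By family, the IL-1 family had 12 of 15 tested genes called, the common gamma chain family 5 of 8, the IL-10 family 3 of 6, and the IL-17 family 2 of 6.

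**Figure D1:**
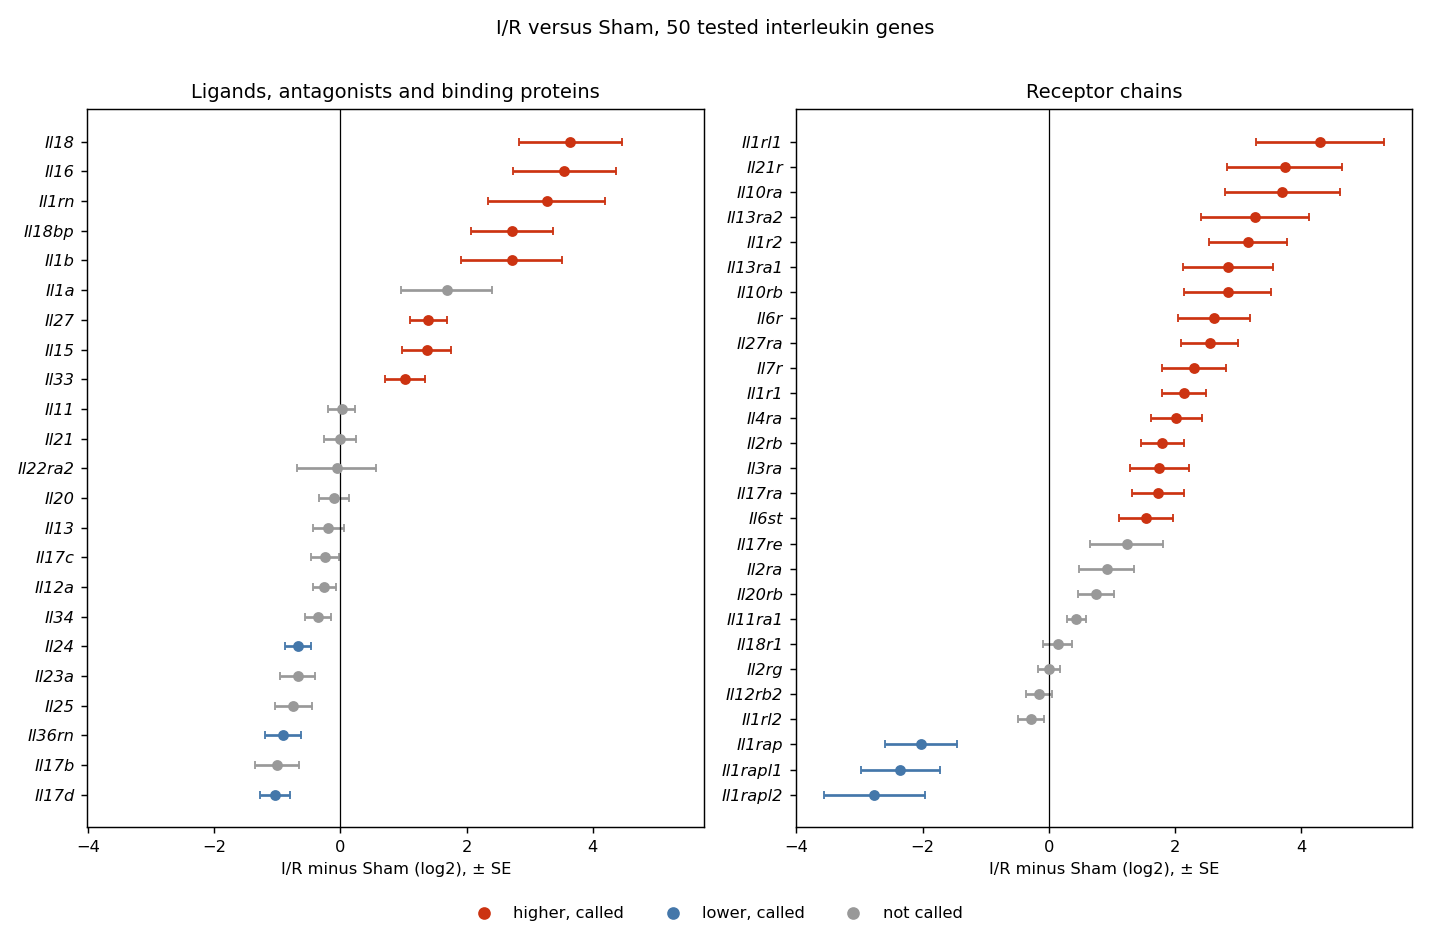
Difference I/R minus Sham (log2, x axis) of the 50 tested interleukin genes, with ligands, antagonists, and binding proteins on the left and receptor chains on the right. Points are estimates of the fit with bars of 1 SE, red and blue marking called genes; 16 of the 27 receptor chains lie in red on the right and 3 in blue on the left, and for Il1rl1, Il10ra, and Il27ra, which were not well above background on any Sham array, the point is the measured difference and not a bound.

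Among the IL-1 family ligands, Il1b, which encodes the pro-inflammatory cytokine that the inflammasome activates, was at -5.70, -5.35, and -5.69 on the Sham arrays and at -2.66, -2.38, and -3.55 on the I/R arrays. It rose by 2.72 (SE 0.80, adjusted p 0.042, limma), and every I/R array was above every Sham array. Il18, the other substrate of the inflammasome, read -1.83, -2.35, and -2.67 in Sham and 2.05, 1.495, and 0.53 in I/R. It had the largest rise among the tested ligands, 3.64 (SE 0.81, adjusted p 0.040). The lowest I/R array was I/R 3 for both genes. Il1a, which encodes the other IL-1 agonist, was higher in I/R by 1.68 (SE 0.73) with an adjusted p of 0.097 and so was not called; I/R 3 read -4.71, just above the highest Sham array at -4.90, while I/R 1 and I/R 2 read -2.65 and -2.73. Il33, an alarmin that signals through the receptor encoded by Il1rl1, rose by 1.02 (SE 0.32, adjusted p 0.046), from -0.94 ± 0.16 to 0.09 ± 0.45 (SD, n = 3).

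Of the 3 proteins that antagonize this family, 2 were called higher and 1 lower. Il1rn, the IL-1 receptor antagonist, read -4.63, -4.06, and -4.06 in Sham and -0.27, -0.76, and -1.90 in I/R, a rise of 3.27 (SE 0.93, adjusted p 0.041). Il18bp, the soluble IL-18 binding protein, rose by 2.72 (SE 0.65, adjusted p 0.040), from -4.16 ± 0.61 to -1.44 ± 0.31 (SD, n = 3). Il36rn, the IL-36 receptor antagonist, went the other way and fell by 0.91 on the log2 scale (SE 0.29, adjusted p 0.045), with Sham arrays between -3.94 and -3.77 and I/R arrays between -4.95 and -4.52. Its agonist Il1f8 (Il36b in RefSeq) passed the test against background on 2 of 3 I/R arrays and on no Sham array. It read -4.11, -4.83, and -7.54 in I/R, the last at background. Against the background level of the Sham arrays it was at least 7.41-fold higher in I/R (4.58 without I/R 1 and 15.1 without I/R 3), and it could not be tested under the detection rule. For a gene at background throughout a group, the bound compares the brighter group's mean with the dimmer group's mean, in which each array gives the higher of the gene's own signal and the lowest signal that counts as above background. Il22ra2, the soluble IL-22 binding protein, differed by -0.06 (SE 0.62).

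**Figure D2:**
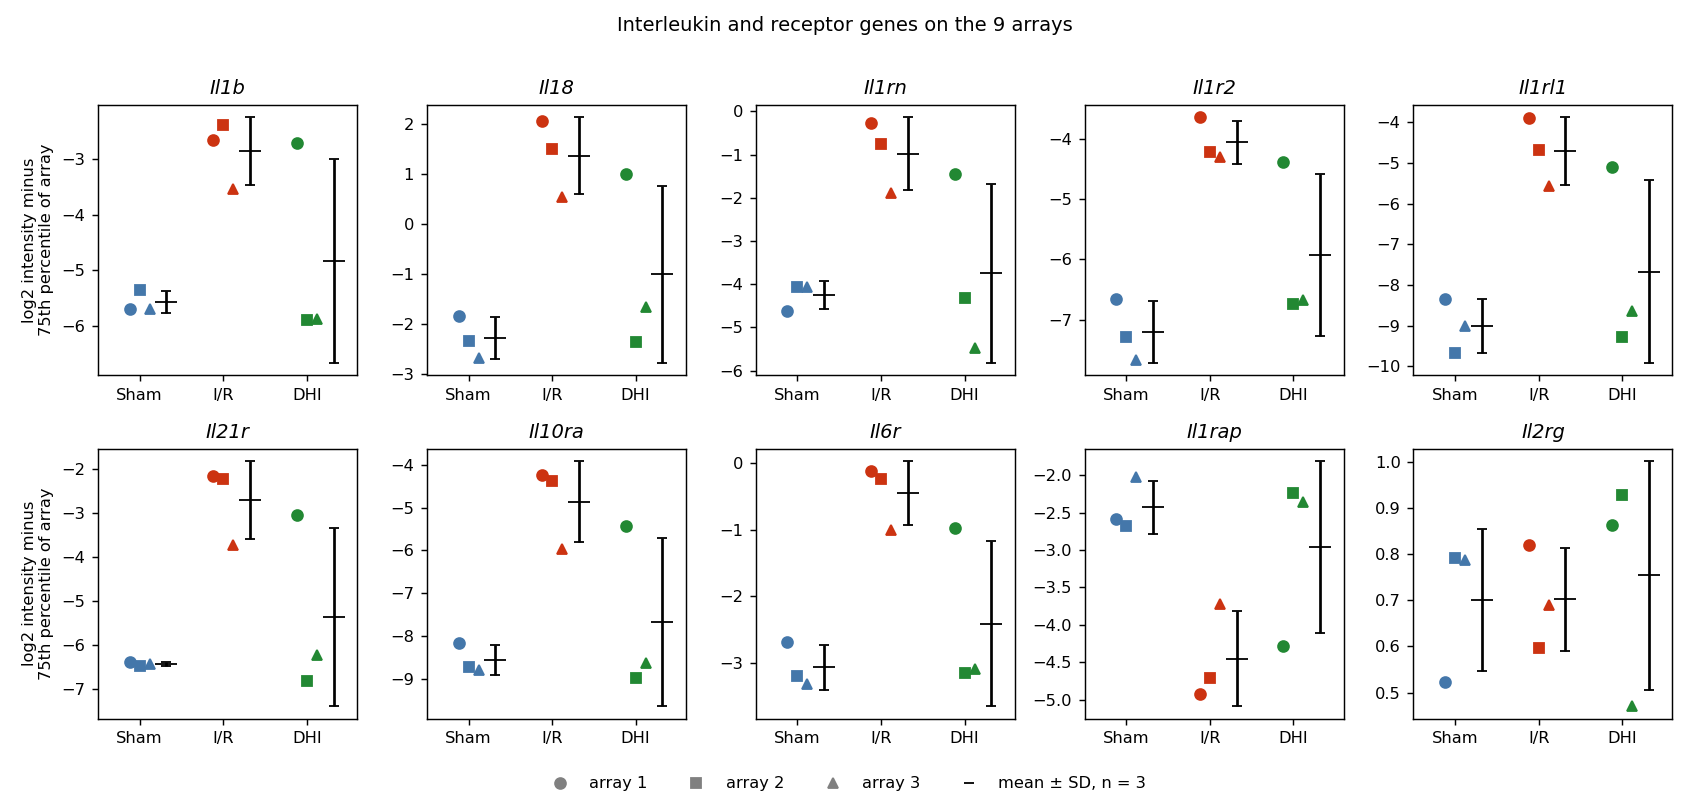
Values of 10 interleukin and receptor genes on each array (y axis, log2 intensity minus the array's 75th percentile) by group (Sham, I/R, DHI). Symbols mark arrays 1, 2, and 3 of a group and the bar gives mean ± SD; the I/R and Sham arrays are separated in every panel but Il2rg, and DHI 1 lies beside the I/R arrays in those 9 panels.

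Outside the IL-1 family, Il16, whose product attracts CD4-bearing cells, rose by 3.55 (SE 0.82, adjusted p 0.040), from -2.38, -3.30, and -3.15 in Sham to 1.45, 0.83, and -0.47 in I/R. Il15, a cytokine that sustains natural killer and memory T cells, rose by 1.37 (SE 0.38, adjusted p 0.040). Il34, which shares the receptor encoded by Csf1r with the growth factor CSF-1 and in brain is made mainly by neurons, read 3.28, 3.13, and 2.71 in Sham and 2.53, 2.56, and 2.96 in I/R. These 2 groups of arrays overlapped, and the difference of -0.36 (SE 0.21, adjusted p 0.19) was not called. Csf1r itself rose by 3.60 (SE 0.81, adjusted p 0.040). The remaining risen ligand was Il27, the p28 chain of IL-27, which rose by 1.39 (SE 0.29, adjusted p 0.040). Its partner chain Ebi3, listed among the other genes of interleukin signaling, fell by 0.83 on the log2 scale (SE 0.20, adjusted p 0.040).

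Ligands that fell were Il17d, a member of the IL-17 family expressed in brain, and Il24. Il17d read -1.14, -0.98, and -1.07 in Sham and -2.23, -2.09, and -1.97 in I/R, and fell by 1.04 on the log2 scale (SE 0.24, adjusted p 0.040). Il24 fell by 0.67 on the log2 scale (SE 0.20, adjusted p 0.043). Il17b was at -1.01 (SE 0.35) with an adjusted p of 0.056 and passed only the study's thresholds, as did Il23a at -0.67 and Il25 at -0.75. Of the interleukins known from T helper cells, Il13 was above background on all 9 arrays and Il21 on 8, while Il2, Il4, Il5, Il17a, and Il17f were above it on none. Il10, the main anti-inflammatory interleukin, was above background on no array either. Il6 was above background on 1 of the 9 arrays. It read -6.63, -7.58, and -8.85 in I/R. Against the background level of Sham, I/R was at least 2.22-fold higher (1.54 without I/R 1 and 3.31 without I/R 3). This bound rests partly on I/R values at background. A gene below background here may still have been transcribed at levels the arrays cannot measure.

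Of the 9 receptor chains of the IL-1 family, 6 lie side by side on chromosome 9, where their probes span 361 kb (rn4 coordinates of the files, chr9:39316654-39677381), and did not move together. From left to right, Il1r2 rose by 3.16 (SE 0.62) and Il1r1 rose by 2.14 (SE 0.36), both with an adjusted p of 0.040. Next, Il1rl2, the IL-36 receptor, differed by -0.27 (SE 0.21, adjusted p 0.30), and Il1rl1 rose. Last came Il18r1, the IL-18 receptor chain, at 0.14 (SE 0.23), and its partner Il18rap, not well above background on any array. The probes of the 3 risen genes are printed because all 3 cross at least 1 exon boundary: each of these 60-base probes spans more than its own length on the genome, so it matches spliced RNA.
Il1r2, chr9:39316654-39319494 (rn4, plus strand): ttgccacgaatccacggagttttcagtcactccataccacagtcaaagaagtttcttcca
Il1r1, chr9:39472634-39473165 (rn4, plus strand): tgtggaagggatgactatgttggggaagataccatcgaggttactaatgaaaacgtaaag
Il1rl1, chr9:39619275-39620742 (rn4, plus strand): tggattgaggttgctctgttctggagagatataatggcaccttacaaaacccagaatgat
They are given 5′ to 3′ with no base marked, have 45%, 41.7%, and 41.7% G and C, and each has at least 1 forward reading frame without a stop codon.

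Il1rl1 encodes the IL-33 receptor ST2 and had the largest difference of all 50 genes. It was at background on the 3 Sham arrays (-8.35, -9.66, and -9.01) and at -3.90, -4.67, and -5.56 on the I/R arrays, at least 15.8-fold higher (adjusted p 0.040). Its group means were -9.01 ± 0.66 and -4.71 ± 0.83 (SD, n = 3). ST2 is made as a membrane receptor and as a shorter soluble form that captures IL-33. Another probe of the gene, assigned to a different transcript and lying upstream of the first (chr9:39617225-39617284, rn4), was likewise above background on all I/R arrays and no Sham array and rose by 3.03 on the measured scale (adjusted p 0.040).

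Il1r1, the signaling receptor of IL-1, was well above background on 1 Sham array, 3 I/R arrays, and 1 DHI array, so the size of its rise rests partly on values near background. It read -7.82, -8.00, and -8.55 in Sham and -5.54, -5.95, and -6.46 in I/R. Il1r2, the decoy receptor that binds IL-1 without signaling, was above background on all 9 arrays and read -6.66, -7.29, and -7.67 in Sham and -3.64, -4.21, and -4.30 in I/R. Their accessory chain went the other way. Il1rap, the accessory protein shared by the receptors of IL-1, IL-33, and IL-36, read -2.59, -2.67, and -2.03 in Sham and -4.92, -4.71, and -3.73 in I/R, and fell by 2.02 on the log2 scale (SE 0.57, adjusted p 0.040). Of its 2 other probes, 1 was above background on 1 array and the other on none.

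Il1rapl1 and Il1rapl2 are related to Il1rap in sequence, and are known from neurons, where Il1rapl1 organizes synapses. Il1rapl2 read -1.97, -1.56, and -1.75 in Sham and -5.44, -4.86, and -3.27 in I/R, and fell by 2.76 on the log2 scale (SE 0.80, adjusted p 0.041). Il1rapl1 fell by 2.35 on the log2 scale (SE 0.62, adjusted p 0.040). These 2 and Il1rap were the only receptor chains called lower. Over a list of 5 neuron genes (Rbfox3, Syt1, Snap25, Slc17a7, and Gad1), 4 were called lower in I/R, beside 15.1% of all probes. Gad1 was at -1.92 (SE 0.73) and not called. The summed level of the list relative to the 75th percentile was 40.8 to 52.6 on the Sham arrays and 3.09 to 18.95 on the I/R arrays. The part of these neuron genes in the 3 falls was not tested.

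Receptors that signal through JAK kinases made up most of the other rises. Il21r, the IL-21 receptor, read -6.40, -6.48, and -6.45 in Sham and -2.15, -2.23, and -3.73 in I/R, and rose by 3.74 (SE 0.91, adjusted p 0.040). Il21 was near 0 (-0.01, SE 0.25). Il10ra, the private chain of the IL-10 receptor, was not above background on any Sham array (-8.16, -8.72, and -8.79) and read -4.24, -4.38, and -5.96 in I/R, at least 12.97-fold higher (adjusted p 0.040). Its shared partner Il10rb rose by 2.83 (SE 0.69, adjusted p 0.040). Both chains of the IL-10 receptor thus rose while the probe of Il10 stayed below background. For IL-6, Il6r rose by 2.61 (SE 0.57, adjusted p 0.040), from -3.06 ± 0.34 to -0.45 ± 0.48 (SD, n = 3), and Il6st rose by 1.53 (SE 0.43, adjusted p 0.040). For IL-27, Il27ra was at least 3.57-fold higher in I/R than the background level of Sham (adjusted p 0.040).

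Il13ra1, which pairs with the IL-4 receptor, rose by 2.84 (SE 0.72, adjusted p 0.040), and the decoy Il13ra2 rose by 3.27 (SE 0.85, adjusted p 0.040), with values of -6.60, -7.03, and -8.18 in Sham and -4.24, -3.91, and -3.85 in I/R. Il4ra, the IL-4 receptor chain, rose by 2.02 (SE 0.40, adjusted p 0.040). Il13 itself differed by -0.19 and Il4 was below background throughout. Within the common gamma chain family, Il7r rose by 2.31, Il4ra by 2.02, and Il2rb by 1.80, while the shared chain Il2rg read 0.52, 0.79, and 0.79 in Sham and 0.82, 0.60, and 0.69 in I/R. Its difference was 0.0018 (SE 0.17), and the groups overlapped. The Il2rg value rests on 1 probe (chrX:89342063-89342122, rn4), since a second probe of the gene (chrX:89339582-89339641) was at background on all 9 arrays. The other risen receptor chains were Il3ra at 1.75 and Il17ra at 1.73.

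Other genes of interleukin signaling were counted from a list of 40. It holds adaptors, kinases, transcription factors, and inhibitors inside the cell, and related cytokines and receptors such as Osm, Osmr, and Csf1r. Of these, 39 were on the array and all 39 were tested. In I/R versus Sham 25 of them were called, 21 higher and 4 lower, beside 31.5% of all probes, and 29 passed the study's thresholds, beside 43.1%. Csf2rb, at background on all Sham arrays, and Nlrp3, above background on 2 of them, were tested through their I/R arrays alone. In a fit of probes above background on all 9 arrays, 22 were called, 18 higher and 4 lower. The largest rise was Pycard, the inflammasome adaptor, at 4.77 (SE 0.94, adjusted p 0.040), followed by Nlrp3, the inflammasome sensor, at 3.91 (SE 0.89) and Csf1r. Casp1, which cleaves the precursors of IL-1 beta and IL-18, rose by 3.42 (SE 0.75). Of the JAK kinases, Jak3, the partner of Il2rg, rose by 2.86 (SE 0.63), while Jak1 (0.35) and Jak2 (0.29) were not called. Genes that encode brakes on cytokine receptors went both ways. Socs2 and Cish fell by 1.28 (SE 0.33) and by 0.87 (SE 0.23) on the log2 scale, while Socs3 rose by 0.93 (SE 0.24). Each had a limma adjusted p of 0.040. Socs1 was at 0.54 (SE 0.33) and was not called. Stat4 was above background on all Sham arrays and on no I/R array, at least 1.89-fold lower, and was not called (adjusted p 0.11).

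Cell type markers moved with these genes, and in RNA from whole tissue more cells of a type cannot be told apart from more RNA per cell. Of 8 genes of microglia and macrophages, 7 were called higher in I/R, beside 16.4% of all probes. The other, Cx3cr1, was at -0.998 (SE 0.52) and not called, with every I/R array below every Sham array. The summed level of all 8 was 9.20 to 10.97 times the 75th percentile in Sham, 60.6 to 172 in I/R, and 13.2 to 95.4 in DHI. Of 6 T cell genes 4 were called higher, with summed levels of 0.159 to 0.192 in Sham and 0.514 to 0.930 in I/R. Cd8a, 1 of the 4, was at background on all Sham arrays and was tested through its I/R arrays alone. Cd3e was at 1.15 (SE 1.21) and not called, and Cd2 was too dim to be tested. Of 4 neutrophil genes 2 were called higher (S100a8 and S100a9), while Mpo was at -0.31 and not called, and Elane was at background on all arrays. Astrocyte genes were called higher for 3 of 5. Slc1a2 in that list was at -1.12 (SE 0.46) and passed only the study's thresholds, as lower. No oligodendrocyte or endothelial gene was called. A list of 3 choroid plexus genes varied within groups, from 1.099 to 93.0 in I/R and from 7.42 to 135.5 in DHI, against 0.338 to 0.929 in Sham. How much of the interleukin changes goes with these cell types was not tested.

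The calls in I/R versus Sham stand close to the threshold. The adjusted p of the 30 called genes started at 0.0396, and the median over all called probes was 0.0404. When any Sham array, I/R 1, I/R 2, or DHI 3 was left out, none of the 30 kept an adjusted p under 0.05 (limma, lowest values from 0.0577 without DHI 3 to 0.133 without I/R 1). Each of these fits called at most 1 of all 23747 probes, so the loss was not particular to these genes. All 30 still passed the study's thresholds in the same direction. Without I/R 3, DHI 1, or DHI 2, 29, 30, and 30 of them kept the adjusted call, and 10135, 10266, and 7996 of all probes were called. Without scaling between arrays, none of the 50 genes and 1 of all probes had an adjusted call. At the study's thresholds 33 of the genes passed (27 higher), as did 9853 of all probes.

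**Figure D3:**
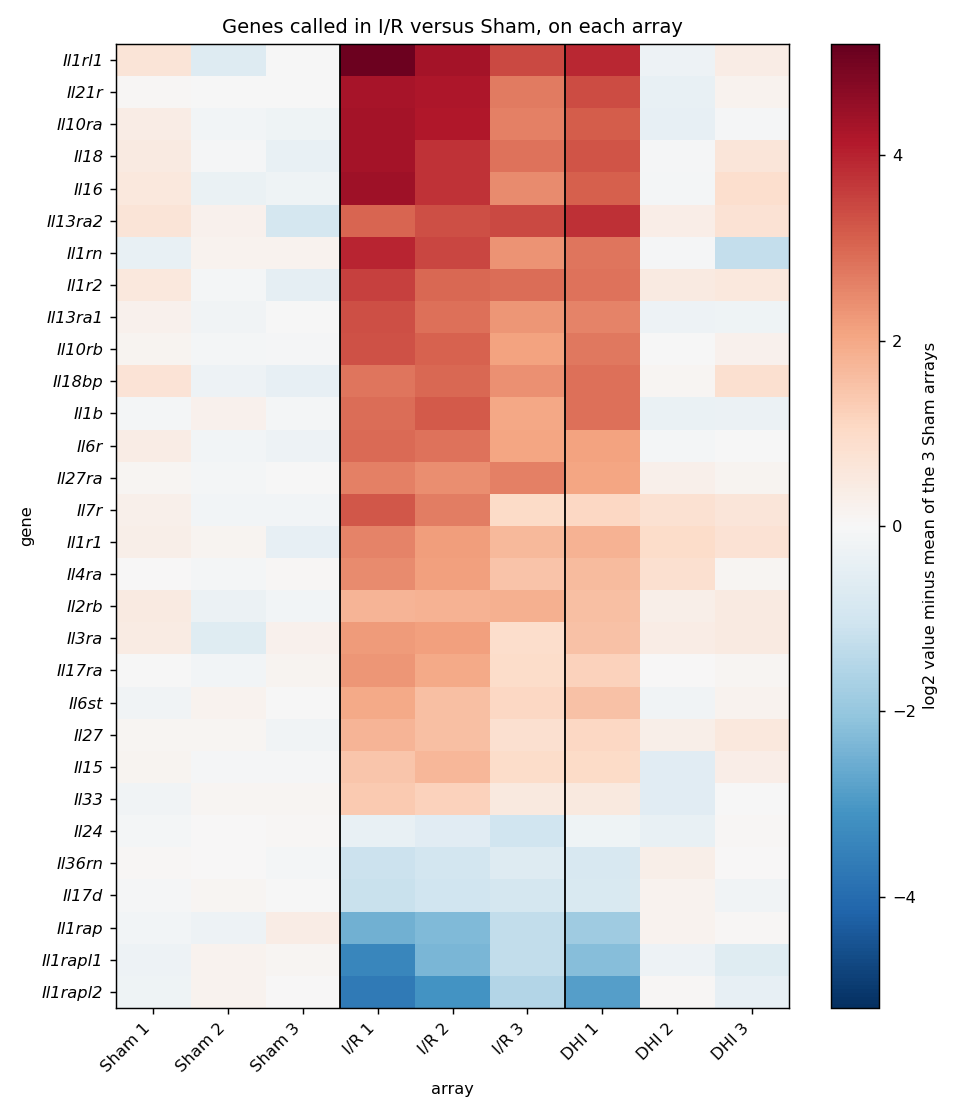
Values of the 30 genes called in I/R versus Sham on each array, as the log2 difference from the mean of the 3 Sham arrays (color scale; rows are genes ordered by their I/R difference, columns are arrays). I/R 3 is paler than I/R 1 and I/R 2 in most rows, and among the DHI arrays DHI 1 has the colors of the I/R columns in most rows while DHI 2 and DHI 3 are near the Sham columns.

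In DHI versus I/R no interleukin gene was called by limma (lowest adjusted p 0.196), beside 0.00421% of all probes. At the study's thresholds 27 of the 50 genes passed, 22 lower in DHI and 5 higher, against 21.9% of all probes (10.5% lower and 11.5% higher). Among these, receptor chains numbered 17 (15 lower, 2 higher), ligands 8 (6 lower, 2 higher), and antagonists and binding proteins 2 (1 each way). The study set these thresholds on another test, gene by gene, and by that test 2 of the 50 genes passed (1 higher, 1 lower), as did 469 of the 23747 probes. The split also depended on the processing, with more genes lower than higher in each case: without scaling between arrays, when the median of all probes was -0.36, 28 genes passed with none higher, and after normexp background correction 18 passed with 6 higher. For 7 of the 50 genes every DHI array lay on 1 side of every I/R array, against 9.53% of all probes. This comparison shares the I/R arrays with I/R versus Sham, so the 2 sets of differences are not independent of each other. The lowest values of DHI minus I/R were -2.96 for Il1rl1 (SE 1.02), -2.82 for Il10ra (SE 0.91), and -2.77 for Il1rn (SE 0.93), of which Il1rl1 and Il10ra were above background on 1 DHI array only, so that their size and rank rest partly on values at background. The highest were 1.70 for Il1rapl2 (SE 0.80), 1.497 for Il1rap (SE 0.57), and 1.31 for Il1rapl1 (SE 0.62).

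Within the DHI group 1 array stood apart from the other 2. Il1b read -2.71 on DHI 1, within the I/R range, and -5.90 and -5.88 on DHI 2 and DHI 3, below the lowest Sham array. Il18 read 1.00, -2.36, and -1.65, and Il1rn read -1.46, -4.32, and -5.48. For the receptors the order was the same: Il1rl1 read -5.11, -9.27, and -8.63, Il21r -3.05, -6.83, and -6.24, and Il6r -0.98, -3.16, and -3.09 on DHI 1, 2, and 3. Of the 6 genes that fell in I/R, DHI 1 lay inside or beyond the I/R range for 4, among them Il1rap, at -4.28 on DHI 1 and at -2.24 and -2.35 on the others. Il24 differed from this order, at -6.27, -6.43, and -5.99, with DHI 2 the nearest to I/R. Il7r varied less among the DHI arrays, at -4.78, -5.06, and -5.199, between the I/R and the Sham means of -3.54 and -5.85. Il1r1 also lay between its means of -5.98 and -8.12, at -6.31, -7.18, and -7.36, but only 1 DHI array was well above background there, and its DHI minus I/R difference of -0.97 became 0.11 after normexp background correction. Of the 24 genes that rose in I/R, DHI 1 lay inside or beyond the range of the I/R arrays for 21, while DHI 2 lay inside or beyond the Sham range for 19 and DHI 3 for 10. The other 14 values of DHI 3 lay between the I/R and Sham ranges. These 24 genes were chosen on the same Sham and I/R arrays, so the counts only describe where the DHI arrays fell. The summed level of the microglia and macrophage genes separated the arrays in the same way, at 95.4 on DHI 1 and 13.2 and 15.1 on DHI 2 and DHI 3. Cx3cr1 of that list was lowest on DHI 1, at 0.30, 2.54, and 1.66 on DHI 1, 2, and 3.

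**Figure D4:**
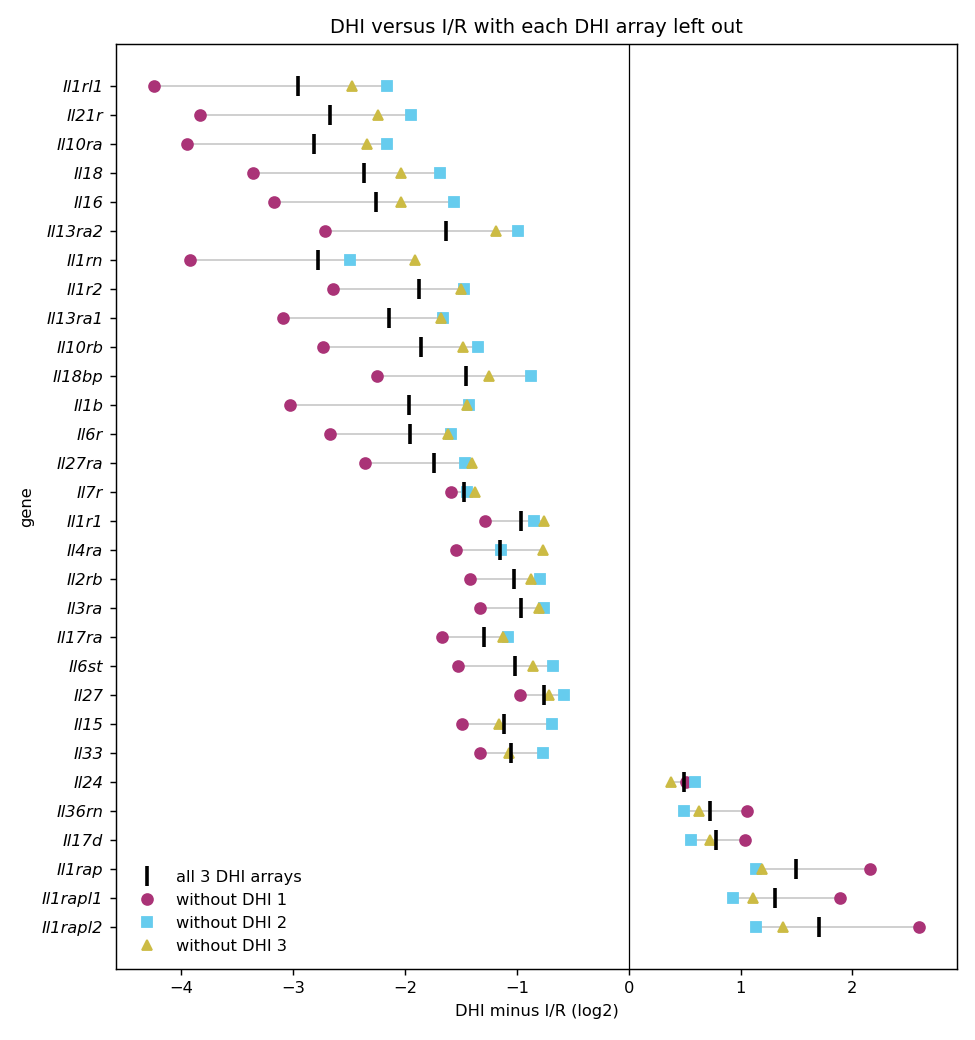
Difference DHI minus I/R (log2, x axis) of the 30 genes called in I/R versus Sham, with all 3 DHI arrays (black ticks) and with each DHI array left out (symbols). The points without DHI 1 lie farthest from 0 for all genes but Il24, where the point without DHI 2 does, and all values of a gene keep 1 sign.

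The counts in DHI versus I/R turned on DHI 1. Without it, 35 of the 50 genes were called by limma's adjusted p, 25 lower and 10 higher (21 receptor chains, 11 ligands, and 3 antagonists and binding proteins), but so were 40.1% of all probes. Without DHI 2 or DHI 3 none was called by limma, with lowest adjusted p of 0.539 and 0.471, and of all probes 1 and 0 were. Without DHI 1 the differences were -3.03 for Il1b (adjusted p 0.0021), -3.92 for Il1rn, and 2.16 for Il1rap, and Il1rl1, then at background on both DHI arrays, was at least 11.3-fold lower in DHI. All 3 DHI arrays have the same label, so nothing in the labels sets DHI 1 apart, and the difference with all 3 arrays is the one that the design gives. With all 3, the SD of Il1b was 1.84 in DHI beside 0.20 in Sham and 0.61 in I/R.

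DHI and Sham differed for no interleukin gene by limma's adjusted p (lowest 0.709), and 0 of all 23747 probes were called. At the study's thresholds 1 gene passed, Il1r1, at 1.17 (SE 0.36), while 3.58% of all probes did (2.52% higher and 1.06% lower). Il1r1 was well above background on 1 Sham and 1 DHI array, so its difference is mostly between values near background. Among probes above background on all 9 arrays, 0 receptor chains passed. The largest measured differences were 1.64 for Il13ra2 (SE 0.85) and 1.29 for Il16 (SE 0.82) in 1 direction and -1.06 for Il1rapl2 (SE 0.80), -1.04 for Il1rapl1 (SE 0.62), and -0.53 for Il1rap (SE 0.57) in the other. The value of 1.34 for Il1rl1 (SE 1.02) sets background on all Sham arrays against background on 2 of 3 DHI arrays. With SE values of this size a difference of 1 on the log2 scale could not be told from 0. Of the signaling list, 16 of 39 genes passed the study's thresholds in DHI versus I/R (15 lower, 1 higher), beside 21.9% of all probes. In a fit of the 2 groups alone 10 passed, and by the test that the study's methods name, 0. In DHI versus Sham 1 passed, with no adjusted call by limma in either comparison.

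The probes of Il18 and Il6 are printed as the ligands at the 2 ends of detection, the largest ligand rise and a cytokine above background on 1 array.
Il18, chr8:53943005-53943064 (rn4, plus strand): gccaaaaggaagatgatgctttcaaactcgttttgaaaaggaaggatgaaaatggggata
Il6, chr4:457279-458563 (rn4, minus strand): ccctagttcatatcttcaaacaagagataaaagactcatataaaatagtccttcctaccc
Both are given 5′ to 3′ with no base marked. Each has 1 forward reading frame without a stop codon, and the Il6 probe spans 1285 bases of the genome and so crosses at least 1 exon boundary.

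Promoters were searched because so many of these genes rose together. The RefSeq table (GRCr8) held a promoter for 59 of the 76 genes, 20 of them risen genes, and the 250 bases before the start were read on both strands. The STAT site TTCNNNGAA was in 0 of the 20, against 7.57% of all 27457 promoters of the table. TGANTCA, a loose form of the AP-1 site with any middle base, was in 2 of the 20 (6.41% of all promoters). The usual AP-1 site has C or G in the middle, and the match in Il15 has T. The cyclic AMP response element TGACGTCA was in 1 of the 20 (1.68%). The ETS site of PU.1, GAGGAAGT, was in 0 of the 20 (2.04%), as was the NF-kB site GGGACTTTC (0.27%). These letters and windows are a description, and a window without a match says nothing of the factor. The 3 risen genes with a match are printed 5′ to 3′ in the direction of the gene, with the matched letters in capitals, TGANTCA in Il15 and Il16 and TGACGTCA in Il21r.
Il15, chr19:42544456-42544705 (GRCr8, plus strand): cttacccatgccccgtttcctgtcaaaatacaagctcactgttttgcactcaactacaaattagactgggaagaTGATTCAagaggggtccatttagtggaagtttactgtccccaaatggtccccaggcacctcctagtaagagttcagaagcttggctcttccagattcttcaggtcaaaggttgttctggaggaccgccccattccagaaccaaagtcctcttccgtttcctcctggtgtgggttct
Il16, chr1:147116743-147116992 (GRCr8, minus strand): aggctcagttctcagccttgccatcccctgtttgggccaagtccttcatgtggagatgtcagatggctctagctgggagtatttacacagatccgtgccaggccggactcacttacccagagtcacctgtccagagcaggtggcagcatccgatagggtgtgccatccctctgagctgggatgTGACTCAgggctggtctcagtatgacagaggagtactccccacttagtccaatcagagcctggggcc
Il21r, chr1:189598503-189598752 (GRCr8, plus strand): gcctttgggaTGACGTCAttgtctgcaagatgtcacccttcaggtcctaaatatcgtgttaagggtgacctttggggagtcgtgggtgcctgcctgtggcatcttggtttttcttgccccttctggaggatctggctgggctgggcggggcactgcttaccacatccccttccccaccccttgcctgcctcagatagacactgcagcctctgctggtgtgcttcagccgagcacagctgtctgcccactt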

How the data were processed

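RNA of 9 rat brain samples was hybridized to one-color Agilent arrays. The authors deposited the output of Agilent Feature Extraction 10.7.1.1, whose processed intensity has background subtracted within each array, with no scaling across arrays, and a series table of log2 values that follow quantile-normalized log2 intensities computed here (Pearson's r across probes 0.99993 or more on every array). Controls and outlier spots were left out. Spots of a probe were averaged on the log2 scale, and each array was centered on its 75th percentile (intensities of 1816.3 to 3464.4). A probe counted as above background when 50% or more of its spots did, and 75.2% to 78.9% of probes did per array. No probe was saturated on any array (0). One limma 3.58.1 model (R 4.3.3, 6 residual degrees of freedom) was fitted to the 23747 tested probes of all 9 arrays, and the steps were tested on simulated data. The study's thresholds come with a t-test, which was run as an alternative. Alternatives were other scaling and background correction, the authors' table, other filters, the 2 groups alone, the methods' t-test, a replicate block, the mean over a gene's probes, and leaving out each array. Accessions of 71 genes matched RefSeq and 5 more matched by symbol or synonym; the names are those of the files (RefSeq gives another for 4, among them Il36b for Il1f8 and Il4r for Il4ra). Full values are given for the 8 largest rises and 4 largest falls of receptors. They are also given for the 5 largest rises and 3 largest falls of the rest. The 3 largest differences each way with DHI and a list of central genes complete these. Il27, Il24, Il23a, Il25, Il7r, Il2rb, Il3ra, Il17ra, Il27ra, Il1f8, Ebi3, and Cish were named after their values were seen. So were Casp1, Socs1, Socs3, and the JAK kinases. Members and lists were chosen with earlier results of these data known. The number of arrays limits the precision. Serum, histology, and cell culture were not analysed here.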

Additional observations from a re-analysis of the deposited data

Results flagged for a closer look

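For 5 receptor genes a probe that the comparisons did not use was called higher in I/R than in Sham by limma's adjusted p, as was the probe that was used. The unused probes differed by 2.80 for Il13ra1, 3.03 for Il1rl1, 2.07 for Il3ra, 2.20 for Il4ra, and 2.61 for Il7r on the log2 scale, beside 2.84, 4.30, 1.75, 2.02, and 2.31 for the probes used. The Il1rl1 values are measured differences from Sham arrays at background. In 5 other genes (Il1a, Il1rap, Il2rg, Il36rn, and Il6st) the unused probes were too dim to be tested.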

How the results depend on the processing

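In I/R versus Sham, the counts of called ligands (8), receptor chains (19), and signaling genes (25) each became 0 without scaling between arrays, and ranged from 0 to 11, 0 to 21, and 0 to 29 when an array was left out. At the study's thresholds the ranges were 8 to 12, 19 to 22, and 25 to 31. At an adjusted p under 0.1, a setting chosen after seeing the data, 12, 20, and 29 were called. Of the values of named genes under other settings, 381 kept their direction and call, 201 lost the adjusted call in the same direction, 11 gained it, and 3 turned. Those were of Il2rg, at -0.011 with normexp and -0.087 to 0.054 when an array was left out. The cause was not tested, here or below.

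In DHI versus I/R, leaving out an array gave 0 to 11 ligands, 0 to 21 receptor chains, and 0 to 29 signaling genes by the adjusted p, the highest counts without DHI 1. At the study's thresholds the ranges were 2 to 12, 3 to 23, and 2 to 30. Ligands numbered 5 with normexp, 5 in a fit of the 2 groups alone, and 0 with the methods' t-test. Receptor chains numbered 11 with normexp and 2 with the methods' t-test. Signaling genes numbered 25 without scaling, 10 in a fit of the 2 groups alone, and 0 with the methods' t-test. Il1r1 turned to 0.11 with normexp. Il34 and Il2rg, both near 0, also turned. Il34 was -0.047 after quantile normalization, -0.045 in the authors' table, -0.41 unscaled, and -0.032 to 0.19 with an array left out, and Il2rg was -0.019, -0.022, -0.41, and -0.035 to 0.19.

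In DHI versus Sham the adjusted p called 0 genes of each list under every setting run. At the study's thresholds, leaving out an array gave 0 to 4 ligands, 1 to 5 receptor chains, and 0 to 5 signaling genes. Ligands numbered 1 with quantile normalization, without scaling, in the authors' table, without a filter on dim probes, in a fit of the 2 groups alone, and with a replicate block. Receptor chains numbered 0 without scaling and 0 among probes above background on all 9 arrays, 4 with normexp, 2 in a fit of the 2 groups alone, 2 with the methods' t-test, and 5 with a replicate block. Signaling genes numbered 0 with quantile normalization, in the authors' table, and with the methods' t-test, 2 without scaling and with a replicate block, and 3 with normexp. With an array left out, 15 of the named differences could turn, 13 of them without DHI 1. Il21r ranged from -0.093 to 1.79, Il10ra from -0.25 to 1.53, Il13ra1 from -0.25 to 1.18, Il6r from -0.060 to 1.03, Il1rn from -0.65 to 1.36, Il1b from -0.31 to 1.29, Il1a from -0.30 to 0.89, Il15 from -0.12 to 0.68, Il1rap from -0.89 to 0.14, Il17d from -0.48 to 0.0079, Il17b from -0.50 to 0.20, Il36rn from -0.42 to 0.15, Il33 from -0.30 to 0.25, Il2rg from -0.035 to 0.20, and Stat4 from -0.39 to 0.58. The mean over a gene's probes turned Il1rap to 0.29 and Il36rn to 0.38. Without scaling Il15 was -0.0089 and Il2rg -0.21. Stat4 was -0.18 with quantile normalization, -0.24 without scaling, and -0.15 in the authors' table.

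The labels number the replicates but do not say whether same-numbered arrays are paired. Deviations of same-numbered arrays from their group means correlated from -0.341 to 0.476 across probes, and 5 of 9 arrays correlated best with an array of their own number. With the replicate block, 8 ligands, 19 receptor chains, and 28 signaling genes were called for I/R against Sham and none for DHI against I/R, where 20 receptor chains and 20 signaling genes passed the study's thresholds. Leaving out an array leaves 2 in its group, whose spread is then taken from all groups. Signal over background limits the 26 genes that could not be tested.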
